A study of Mus musculus with 4 samples.

Results

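The receptors that carry corticosteroid signals, the enzyme that regenerates their ligand inside cells, and a set of genes that they switch on were followed through single-nucleus RNA sequencing of the mouse mediobasal hypothalamus, the base of the hypothalamus that includes the arcuate nucleus. The members were 9 genes chosen by name for their place in corticosteroid signalling: Nr3c1, Nr3c2, Hsd11b1, Fkbp5, Tsc22d3, Sgk1, Zbtb16, Ddit4 and Trib1. All 9 were found among the 31053 genes of the deposited matrix. Nuclei came from wild-type mice fed chow without restriction and given insulin (2 Insulin libraries) or saline (2 Saline libraries) before dissection. Dose, route, time after treatment, strain, age and the number of mice per library are not given in the sources used here, so the p-values below measure the spread between these 4 libraries.

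Corticosterone, the main glucocorticoid of mice, enters cells and binds 2 nuclear receptors. The mineralocorticoid receptor (Nr3c2) binds it with high affinity and is largely occupied at resting hormone levels, whereas the glucocorticoid receptor (Nr3c1) is recruited when the hormone rises in stress or at the daily peak. Bound receptor moves into the nucleus and switches on genes such as Fkbp5, a co-chaperone that lowers the receptor's affinity for its ligand, and Tsc22d3 (also called Gilz), an anti-inflammatory leucine zipper protein. In the hypothalamus the receptors take part in the negative feedback on the stress axis and in the control of feeding. Several of these targets also respond to other signals, among them insulin.

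The libraries held 8352 to 9796 annotated nuclei and 63590421 to 71391593 UMIs (unique molecular identifiers, each standing for 1 captured transcript). Levels are given as CPM (counts scaled to a common total of UMIs) of the same nuclei and library. Each sequencing run, 230 and 232, held 1 Insulin and 1 Saline library. Xist, the X-linked transcript of female cells, was at 1713 CPM in the Insulin library and 1614 CPM in the Saline library of run 232, and at 4.88 and 4.53 CPM in the Insulin and Saline libraries of run 230. The Y-linked gene Uty was high where Xist was low, so run and sex cannot be told apart. The authors annotated 23261 nuclei as Neuron and 11723 into Astro, Oligo, OPC (oligodendrocyte precursor), Micro (microglia), Mural Cell, Endothelial and Ependymo, and split neurons into 37 populations. Of the 28 tested populations named after genes in the matrix, 25 had such a gene highest in that population. The markers of the Endothelial and Mural Cell labels did not follow their names. In nuclei annotated Endothelial the 5 endothelial markers summed to 241 to 323 CPM, against 3278 to 3440 CPM in Mural Cell nuclei, which led in the endothelial list as well as in mural markers (1487 to 2062 CPM). Cldn5, a tight junction gene of brain vessels, averaged 1.69 ± 1.13 CPM in Endothelial nuclei (SD, n = 4) and 538 ± 106 CPM in Mural Cell nuclei. Endothelial nuclei had instead Col23a1, a collagen gene, at 2423 ± 264 CPM and Rax, a homeobox gene known from tanycytes of the ventricle wall, at 84.4 ± 9.41 CPM (SD, n = 4). Both groups of nuclei are therefore called below only by the authors' labels. In Astro, Micro, Neuron, OPC, Oligo and Mural Cell nuclei the summed markers of the type's own list were higher than in any other type. Sums of the ependymal-type list overlapped between Ependymo (2920.03 to 4466 CPM) and Endothelial nuclei (2706 to 3176 CPM), but came from different genes. Dnah12 averaged 2817 CPM in Ependymo and 314 CPM in Endothelial nuclei, and Ccdc153 305 and 3.92 CPM. Foxj1 and Rarres2 were also higher in Ependymo nuclei. Col23a1, at 304 CPM in Ependymo nuclei, and Rax were higher in Endothelial nuclei. Neuronal markers summed to 2975 to 3054 CPM in Neuron nuclei and also to 498 to 1810 CPM in Micro nuclei. Astrocyte markers summed to 6147 to 6589 CPM in Astro nuclei. They also summed to 2575 to 3351 CPM in Endothelial and 1412 to 1655 CPM in Ependymo nuclei. Of 36205 barcode sequences, 318 occurred in more than 1 library.

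The DNA element that the receptors bind is a pair of the hexamer TGTTCT or its reverse complement AGAACA, arranged as an inverted repeat around a core that can be written ACANNNTGT. Start-site windows of the RefSeq GRCm38.p6 annotation were used for 6 of the 9 members, 13 windows in all, and both motifs were searched on both strands. Of these, 4 windows held a hexamer and 2 the core, against 19.0% and 6.85% of all 32851 windows. Sgk1 supplied 6 of the 13 windows, 3 of the 4 with a hexamer and both with the core. Windows of 3 targets are shown because they span that range, from a full element to no match. Capitals mark the matches and lower case the rest, 5′ to 3′ on the strand of the gene. Sgk1 has several start sites, and the window shown (chr10:21993640-21993939, plus strand) held 3 hexamers, of which the last pair encloses the core. Of 3 windows of Tsc22d3 the one shown (chrX:140600473-140600772, minus strand) held 1 hexamer and the others neither motif, and the window of Fkbp5 (chr17:28486100-28486399, minus strand) held neither motif.
Sgk1: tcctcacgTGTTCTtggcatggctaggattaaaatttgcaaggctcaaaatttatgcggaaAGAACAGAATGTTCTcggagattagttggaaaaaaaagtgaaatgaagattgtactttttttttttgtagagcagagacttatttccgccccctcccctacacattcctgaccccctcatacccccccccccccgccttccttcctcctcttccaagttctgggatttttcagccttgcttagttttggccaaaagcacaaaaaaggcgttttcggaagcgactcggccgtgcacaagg
Tsc22d3: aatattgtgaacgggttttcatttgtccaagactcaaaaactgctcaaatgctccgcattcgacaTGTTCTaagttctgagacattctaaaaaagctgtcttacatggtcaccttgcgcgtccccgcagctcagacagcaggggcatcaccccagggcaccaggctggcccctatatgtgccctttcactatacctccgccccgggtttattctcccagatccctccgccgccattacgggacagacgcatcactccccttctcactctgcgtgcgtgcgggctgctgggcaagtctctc
Fkbp5: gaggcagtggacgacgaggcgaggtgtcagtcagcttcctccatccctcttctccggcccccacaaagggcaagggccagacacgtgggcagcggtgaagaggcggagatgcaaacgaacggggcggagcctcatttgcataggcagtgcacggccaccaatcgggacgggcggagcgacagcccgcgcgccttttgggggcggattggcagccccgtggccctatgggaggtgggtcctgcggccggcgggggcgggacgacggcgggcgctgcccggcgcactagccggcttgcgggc
A match in these windows is a description of the sequence, and receptor binding was not measured.

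Both receptors were read in every cell type, with different orders. Nr3c1 (ENSMUSG00000024431, GRCm38 chromosome 18, 39410545 to 39519421, minus strand) had its highest mean in Micro nuclei, at 174 ± 49.3 CPM (SD, n = 4), whose libraries (118 to 234 CPM) overlapped those of Endothelial nuclei (109 to 156 CPM). It was lowest in Ependymo nuclei at 48.2 ± 1.42 CPM. Between them Endothelial, OPC, Astro, Oligo and Mural Cell nuclei lay at means of 127 to 135 CPM with overlapping libraries, and Neuron nuclei at 89.0 ± 4.30 CPM. The highest Neuron library (93.4 CPM) touched the lowest OPC library (93.4 CPM) and lay below the libraries of the other 4 of those types. Nr3c2 (ENSMUSG00000031618, GRCm38 chromosome 8, 76899442 to 77245012, plus strand) was highest in Endothelial nuclei at 408 ± 11.5 CPM and Astro nuclei at 388 ± 49.5 CPM, whose libraries overlapped. It was at 302 ± 26.95 CPM in Ependymo nuclei, 178 ± 13.99 CPM in Neuron nuclei and 119 ± 13.7 CPM in Oligo nuclei, the lowest of the 8 types. Levels per nucleus ran differently, and neurons carried more UMIs: a Neuron nucleus held on average 0.857 Nr3c1 and 1.71 Nr3c2 UMIs, an Astro nucleus 0.431 and 1.30, at median depths of 8445 and 3148 UMIs.

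Each type was compared with the mean of the other types in 1 fit with a term for the library. Because the authors formed the types from these same nuclei, such p-values describe how far the types stand apart and are no independent test. Of the 72 member tests 50 passed, 27 higher and 23 lower, which has to be read against the genes at large: of 14597 genes, 53.8% passed in Astro, 40.7% in Endothelial, 40.8% in Ependymo, 34.8% in Micro, 33.5% in Mural Cell, 69.4% in Neuron, 39.9% in OPC and 58.5% in Oligo. Nr3c1 was higher in Micro (log2 0.60, SE 0.12, adjusted p = 0.00023), Oligo (log2 0.40), OPC (log2 0.36) and Astro nuclei (log2 0.34), and lower in Ependymo (log2 -1.38) and Neuron nuclei (log2 -0.34, adjusted p = 0.00331). Nr3c2 was higher in Astro (log2 1.03, SE 0.08, adjusted p = 1.1e-12), Endothelial (log2 0.82) and Ependymo nuclei (log2 0.36), and lower in Oligo (log2 -0.86), OPC (log2 -0.44), Neuron (log2 -0.34) and Micro nuclei (log2 -0.32). Several of the smaller differences lost their call when a single library was left out, which also leaves fewer residual degrees of freedom. Without the Saline library of run 232 the calls were lost for Nr3c1 in Neuron (log2 -0.26, adjusted p = 0.0643) and Micro (log2 0.40, adjusted p = 0.057), and Nr3c2 in Neuron (log2 -0.24, adjusted p = 0.051). Nr3c1 in OPC lost its call without any 1 of 3 libraries, at log2 0.31 without the Insulin library of run 230, 0.25 without the Saline library of run 230 and 0.35 without that of run 232. Nr3c2 lost its call in Ependymo (log2 0.33) and Micro (log2 -0.28) without the Insulin library of run 232. With every nucleus thinned to 1000 UMIs, Nr3c1 no longer passed in OPC (log2 0.17, adjusted p = 0.525) or Oligo (log2 0.27, adjusted p = 0.0558).

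The balance between the receptors was taken as the share of Nr3c1 in the Nr3c1 plus Nr3c2 UMIs of the same nuclei, which compares groups of nuclei and not the genes. It averaged 51.7% ± 4.88 in Oligo, 45.9% ± 9.07 in Micro and 44.9% ± 6.25 in OPC nuclei (SD, n = 4 libraries), whose libraries overlapped. In thinned nuclei Micro, at 51.2%, and Oligo, at 50.4%, changed places. Neuron nuclei stood at 33.4% ± 2.00, Endothelial and Astro nuclei at 24.8% each, and Ependymo nuclei lowest at 13.8% ± 1.08. The Oligo libraries (44.8% to 56.1%) lay above all Neuron libraries (31.5% to 36.2%), and those above all Astro libraries (24.2% to 25.7%).

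Hsd11b1, the enzyme that turns inert 11-dehydrocorticosterone back into corticosterone, had a narrower range of cells. Astro nuclei held it at 31.8 and 34.1 CPM in the Insulin libraries and 22.6 and 29.0 CPM in the Saline libraries, the highest mean of the 8 types (log2 3.07 against the other types, SE 0.17, adjusted p = 3.8e-17). Mural Cell nuclei came next at 16.7 ± 11.95 CPM, from 17 UMIs in all and 0 in the Insulin library of run 230, with libraries that overlapped those of Astro nuclei (log2 1.84, adjusted p = 0.00224). Without the Insulin library of run 232 that call was lost (log2 1.64, adjusted p = 0.0584). The gene was lower in Neuron (2.98 ± 0.226 CPM, log2 -0.77) and OPC nuclei (10 UMIs, log2 -1.44). Both of these calls were lost without the Insulin library of run 232, at log2 -0.65 in Neuron and -1.43 in OPC, and the OPC call also without either Saline library, at -1.30 and -1.32.

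**Figure D1:**
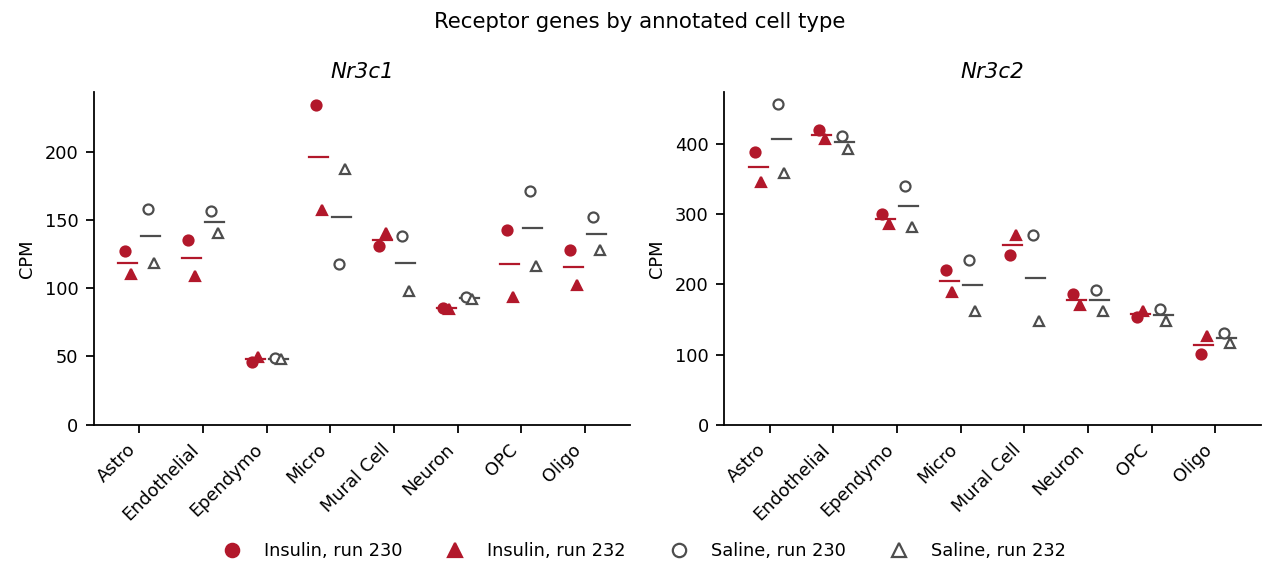
CPM of the receptor genes Nr3c1 (left) and Nr3c2 (right) in the 8 annotated cell types, 1 symbol per library (filled, Insulin; open, Saline; circles, run 230; triangles, run 232), with a bar at each group's mean. Nr3c1 was lowest in Ependymo nuclei in every library, whereas Nr3c2 stood highest in Astro and Endothelial nuclei.

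The targets had orders of their own across cell types. In GRCm38 coordinates Fkbp5 lies on chromosome 17 (28399094 to 28517527, minus strand), Tsc22d3 on chromosome X (140539528 to 140600659, minus strand), Sgk1 on chromosome 10 (21882184 to 21999903, plus strand) and Zbtb16 on chromosome 9 (48654297 to 48836222, minus strand). Ddit4 lies on chromosome 10 (59949669 to 59951834, minus strand), Trib1 on chromosome 15 (59648350 to 59657099, plus strand) and Hsd11b1 on chromosome 1 (193221634 to 193264075, minus strand). Fkbp5 was highest in Micro nuclei, at 1824 and 910 CPM in the Insulin libraries and 586 and 733 CPM in the Saline libraries, all above every library of the other types (log2 2.14 against those types, SE 0.16, adjusted p = 1.2e-13). Endothelial, Mural Cell, Oligo and Astro nuclei followed at means of 284 to 372 CPM, with overlapping libraries. Fkbp5 passed as higher in Oligo (log2 0.65) and Endothelial nuclei (log2 0.53), and the Endothelial call was lost without the Insulin library of run 232 (log2 0.45, adjusted p = 0.0914). It was lower in Neuron (83.3 ± 6.003 CPM, log2 -1.70), Ependymo (91.3 ± 51.5 CPM, log2 -1.58) and OPC nuclei (log2 -0.71).

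Tsc22d3 had the largest difference between neurons and the other types among the members. Its level was 393 ± 68.1 CPM in Endothelial, 355 ± 35.4 CPM in Astro and 273 ± 58.1 CPM in Mural Cell nuclei (SD, n = 4). Neuron nuclei had 10.9 ± 3.41 CPM and OPC nuclei 21.9 ± 11.9 CPM. Against the other types it was higher in Astro (log2 2.01, SE 0.13, adjusted p = 2.8e-15), Endothelial (log2 1.86), Mural Cell (log2 1.17) and Oligo nuclei (log2 1.15), and lower in Neuron (log2 -3.86, SE 0.20, adjusted p = 2.3e-18) and OPC nuclei (log2 -2.57).

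Sgk1, a kinase that both receptors induce and that insulin activates through PI3K, was highest in the oligodendrocyte lineage. Oligo nuclei had 721 and 800.2 CPM in the Insulin libraries and 516 and 753 CPM in the Saline libraries, above every library of the other types (log2 3.68, SE 0.11, adjusted p = 1.2e-25). OPC nuclei followed at 294 ± 64.6 CPM (log2 2.21). Astro nuclei had the lowest mean, 17.8 ± 3.91 CPM (log2 -2.40), with Endothelial (log2 -2.10) and Ependymo nuclei (log2 -1.47) also lower. A small excess in Micro nuclei (log2 0.52) lost its call without either Insulin library, at log2 0.43 without run 230 and 0.54 without run 232, and at 1000 UMIs per nucleus (log2 0.42, adjusted p = 0.196).

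Zbtb16, a zinc finger transcription factor, shared its highest type with Sgk1. It was at 657 ± 76.6 CPM in Oligo nuclei (log2 1.63, SE 0.10, adjusted p = 1.0e-15) and 523 ± 98.0 CPM in Mural Cell nuclei (log2 0.80), with overlapping libraries. Astro nuclei were also higher (log2 0.58), whereas Neuron (95.1 ± 7.07 CPM, log2 -1.70) and Micro nuclei (161 ± 38.6 CPM, log2 -1.04) were lower.

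Ddit4, an inhibitor of the growth kinase mTORC1, and Trib1, a pseudokinase that guides C/EBP proteins to degradation, were both low in neurons. Ddit4 stood at 150.0 ± 38.8 CPM in Mural Cell (log2 2.26, SE 0.16, adjusted p = 7.3e-14), 100.1 ± 27.3 CPM in Oligo (log2 2.06) and 69.1 ± 19.6 CPM in Astro nuclei (log2 1.37), with overlap between Mural Cell and Oligo and between Oligo and Astro libraries. It was at 6.24 ± 1.83 CPM in Neuron nuclei (log2 -2.68), and lower also in OPC (log2 -1.45) and Ependymo nuclei (log2 -1.29). At 1000 UMIs per nucleus the Ependymo call was lost (log2 -1.54, adjusted p = 0.051). Trib1 was higher in OPC (24.4 ± 6.58 CPM, log2 1.91) and Astro nuclei (20.6 ± 3.19 CPM, log2 1.67), whose libraries overlapped, and lower in Neuron (1.65 ± 0.608 CPM, log2 -2.61) and Oligo nuclei (1.73 ± 0.553 CPM, 13 UMIs, log2 -2.33). Neurons were thus lower than the mean of the other types in 8 of the 9 members, and Sgk1 was the one that did not pass. Some single types had lower means than neurons: Ependymo for Nr3c1, OPC and Oligo for Nr3c2, and Micro and OPC for Hsd11b1. Of all 14597 genes 4777 were lower and 5355 higher in Neuron nuclei. The Neuron calls of Nr3c1, Nr3c2 and Hsd11b1 are those lost without 1 library, as given above.

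**Figure D2:**
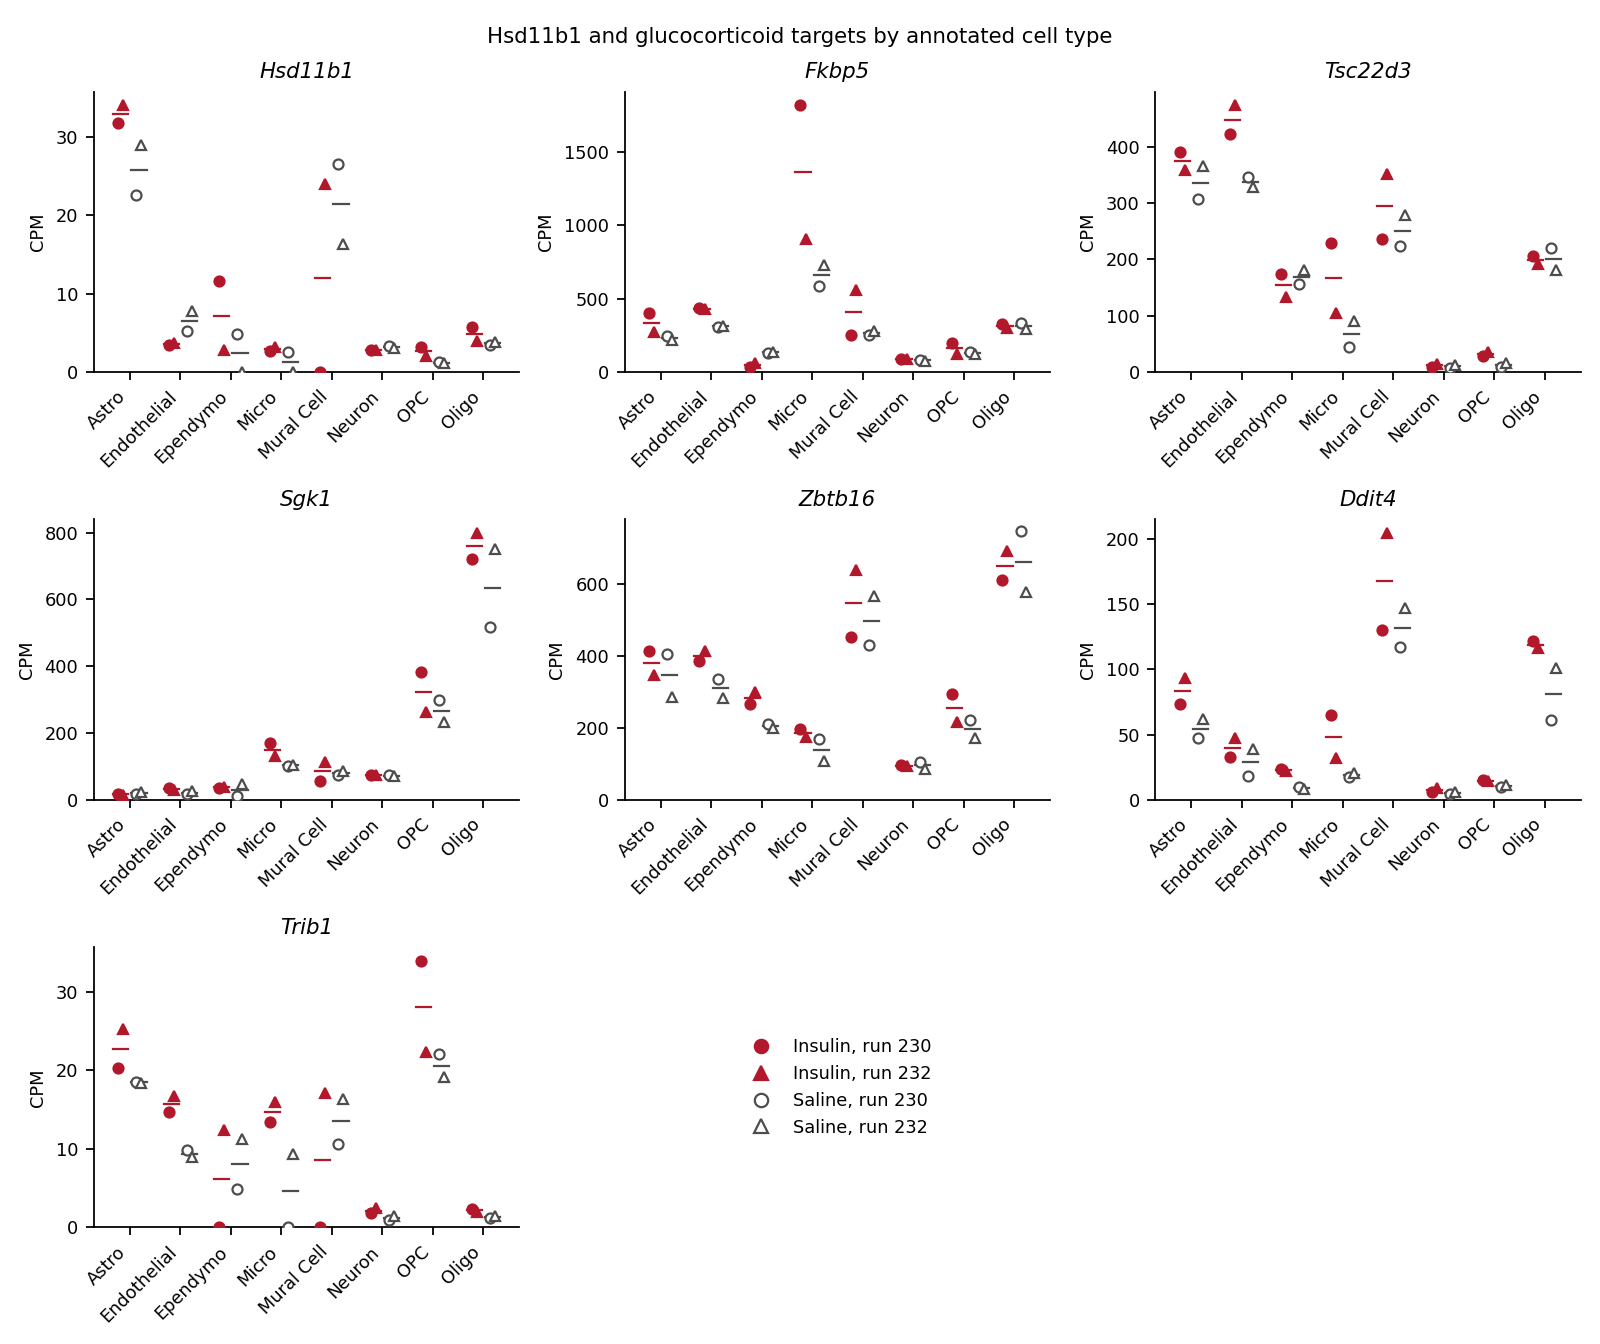
CPM of Hsd11b1 and the 6 target genes in the 8 annotated cell types, 1 symbol per library (filled, Insulin; open, Saline; circles, run 230; triangles, run 232), with a bar at each group's mean; vertical scales differ. The highest mean of Fkbp5 was in Micro, of Sgk1 and Zbtb16 in Oligo, of Ddit4 in Mural Cell and of Hsd11b1 in Astro nuclei.

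Within neurons the receptors were highest in different populations. The 35 populations with at least 10 nuclei in every library were each set against the average of all other populations, and 130 of 315 member tests passed, 76 higher and 54 lower. Among all genes 13.0% of tests passed as higher and 8.16% as lower. The caveat on clusters formed from the same nuclei holds here too. Nr3c1 passed as higher in 14 populations and lower in 10, Nr3c2 in 11 and 9, Fkbp5 in 12 and 13, Sgk1 in 11 and 8, and Zbtb16 in 16 and 11. Of the genes with few UMIs, Trib1 passed as higher in 6, Ddit4 as higher in 2 and lower in 1, Hsd11b1 as higher in 3 and lower in 2, and Tsc22d3 as higher in 1.

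Nr3c1 peaked in M31.Th, dopaminergic neurons by their tyrosine hydroxylase, at 263 and 279 CPM in the Insulin libraries and 277 and 290.5 CPM in the Saline libraries (log2 1.85, SE 0.08, adjusted p = 1.4e-45). M26.Agrp, the neurons of agouti-related peptide that drive feeding, came second at 240.0 ± 17.7 CPM (log2 1.61), below every M31.Th library. M27.Trh at 160 ± 38.0 CPM (log2 1.09) came after them, below every M26.Agrp library. At the low end M24.Avp/Oxt, the vasopressin and oxytocin neurons, had 4.13 and 16.1 CPM in the Insulin libraries and 20.6 and 15.2 CPM in the Saline libraries, 20 UMIs in all (log2 -2.80, adjusted p = 9.6e-18). M3.Pmch, the melanin-concentrating hormone neurons (log2 -1.67), and M28.Tac2 (log2 -1.56) were next, and their libraries overlapped those of M24.Avp/Oxt. In thinned nuclei M3.Pmch no longer passed (log2 -1.23, adjusted p = 0.27).

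Nr3c2 had a single outstanding population. M27.Trh, named for thyrotropin-releasing hormone, held 689 and 571 CPM in the Insulin libraries and 511 and 476 CPM in the Saline libraries (log2 1.83, SE 0.09, adjusted p = 1.2e-36), above every library of the other populations. M14.GABA at 297 ± 33.8 CPM and M4.GABA at 279 ± 33.2 CPM followed, each at log2 0.95. The lowest levels were in M30.Gal (65.4 ± 27.7 CPM, log2 -1.58), M28.Tac2 (65.5 ± 8.44 CPM, log2 -1.43) and M34.Esr1/Npy1r (72.0 ± 13.4 CPM, log2 -1.36), whose libraries overlapped. The M30.Gal call was lost in thinned nuclei (log2 -1.16, adjusted p = 0.0692). M24.Avp/Oxt, lowest in Nr3c1, was on the high side in Nr3c2 (270.1 and 165 CPM in the Insulin libraries, 218 and 184 CPM in the Saline libraries). Its Nr3c1 share was accordingly 6.66% ± 3.48 (SD, n = 4), against 71.0% ± 4.68 in M31.Th, the extremes of the 35 populations. M25.Ghrh (53.6%), M35.Pomc (50.6%) and M26.Agrp (49.8%) had the next highest means, and the highest M25.Ghrh library (68.9%) overlapped M31.Th (66.1% to 77.2%).

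Among the targets, Fkbp5 was highest in M26.Agrp, M25.Ghrh and M31.Th neurons. M26.Agrp held 304 and 268 CPM in the Insulin libraries and 194 and 242 CPM in the Saline libraries (log2 1.57 against the other populations, SE 0.08, adjusted p = 2.7e-36). M25.Ghrh, the growth hormone-releasing hormone neurons (228 ± 42.1 CPM, log2 1.46) and M31.Th (225 ± 33.9 CPM, log2 1.45) overlapped with it. M24.Avp/Oxt was lowest at 28.7 ± 3.45 CPM from 51 UMIs (log2 -1.55), which did not pass in thinned nuclei (log2 -0.18, adjusted p = 0.919). M23.Sim1|Pou3f2 (log2 -1.01) and M30.Gal (log2 -0.86) were also lower, the call in M30.Gal being lost without the Insulin library of run 232 (log2 -0.60) and in thinned nuclei (log2 -0.10).

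Zbtb16 had a wider top group: M37.Tbx19 (215 ± 21.3 CPM, log2 1.20), M25.Ghrh (213 ± 18.0 CPM, log2 1.27) and M31.Th (203 ± 22.5 CPM, log2 1.19) could not be ordered beyond the spread of their libraries. It was lowest in M24.Avp/Oxt at 9.37 ± 6.88 CPM from 17 UMIs (log2 -3.24, adjusted p = 2.4e-13). M3.Pmch (log2 -1.25) and M5.Snypo2 (log2 -0.99) were lower too, both without a call in thinned nuclei (log2 -0.92 and -2.25). Sgk1 had another leader, M32.Pdyn/Grp, at 215 and 212 CPM in the Insulin libraries and 190.3 and 165 CPM in the Saline libraries (log2 1.54, SE 0.09, adjusted p = 1.3e-33). M17.GABA (log2 0.83) and M25.Ghrh (log2 0.63) followed. M24.Avp/Oxt (log2 -1.58), M27.Trh (log2 -0.86) and M31.Th (log2 -0.83) were lowest in Sgk1, and M27.Trh lost its call in thinned nuclei (log2 -1.19, adjusted p = 0.161).

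Trib1 was low throughout. Its highest means were in M27.Trh (13.2 ± 9.41 CPM, 26 UMIs, log2 3.28), M25.Ghrh (11.5 ± 2.13 CPM, 24 UMIs, log2 2.97) and M31.Th (6.38 ± 1.58 CPM, 24 UMIs, log2 2.06). These passed against the mean of the other populations (edgeR adjusted p = 4.3e-11, 1.6e-09 and 7.2e-06), but their libraries overlapped those of others. The lowest libraries were at 3.01 CPM in M27.Trh, 8.80 CPM in M25.Ghrh and 4.11 CPM in M31.Th. M26.Agrp reached 9.21 CPM and M29.Hcrt/Npvf 8.39 CPM. Ddit4 was higher in M26.Agrp (log2 0.69, adjusted p = 0.0194), a call lost without the Saline library of run 232 (log2 0.55, adjusted p = 0.134), and lower in M11.GLUT (log2 -0.91), which lost its call without the Insulin (log2 -0.71) or the Saline (log2 -0.85) library of run 232. Tsc22d3 was higher in M21.Nfix alone (17.4 ± 8.26 CPM, log2 0.63, adjusted p = 0.0053), a call lost without the Saline library of run 232 (log2 0.51). Hsd11b1 rested on at most 79 UMIs per population, reached in M8.Nr5a1 and M9.Fezf1. Its lower levels in M26.Agrp (5 UMIs) and M5.Snypo2 (1 UMI) each lost their call when single libraries were left out.

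Pearson correlations of mean log2 levels were taken across the 35 populations, whose points share the same 4 libraries and differ in depth. Nr3c1 correlated at 0.757 with Zbtb16, 0.736 with Fkbp5 and 0.353 with Trib1, and at 0.177 with Nr3c2. With the other members it correlated at 0.25 (Ddit4), 0.152 (Tsc22d3), 0.117 (Sgk1) and -0.187 (Hsd11b1). Nr3c2 had none above 0.177 with any member. Fkbp5 and Zbtb16 correlated at 0.676. Among 10250 genes with a mean of at least 10 CPM, the closest patterns to Nr3c1 were those of Dnaja4 (0.785), Bcl6 (0.771) and Sez6l (0.764), and to Nr3c2 those of Clvs1 (0.647), Nuak1 (0.612) and Mmd (0.594). Bcl6 was also among the 3 closest to Zbtb16 (0.778), next to Fam155a (0.808) and Nr3c1 itself. For Fkbp5 these were E230001N04Rik (0.873), Dync1i2 (0.816) and Rbbp7 (0.816), and for Sgk1 Gm9962 (0.778), Gabrg3 (0.696) and 4930567K12Rik (0.628). These correlations are descriptions and carry no test.

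**Figure D3:**
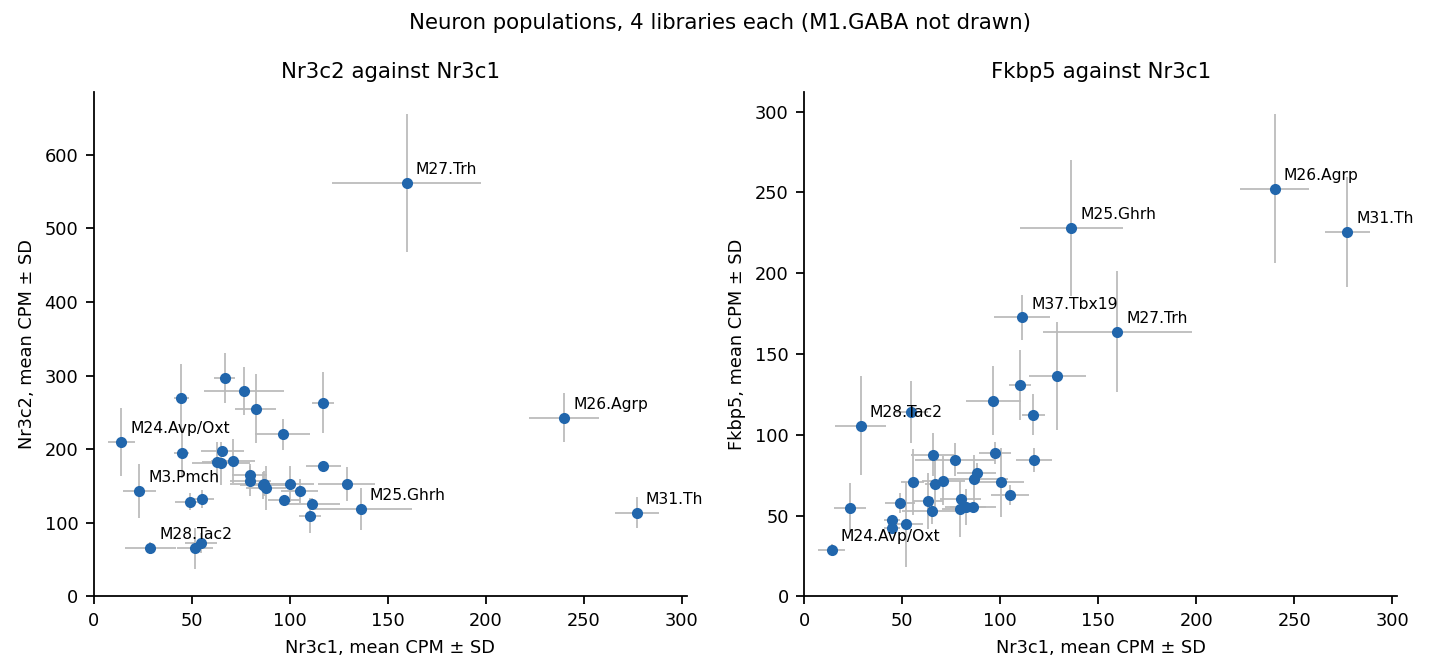
Mean CPM ± SD over 4 libraries of Nr3c2 (left) and Fkbp5 (right) against Nr3c1 in 34 of the 35 tested neuron populations (M1.GABA, the shallowest, is not drawn). M31.Th and M26.Agrp lie farthest right in both panels, M27.Trh stands alone in Nr3c2, and M24.Avp/Oxt is lowest in Nr3c1.

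The study's own comparison was between insulin and saline. Over all annotated nuclei, where a change in a level cannot be told apart from a change in the mix of cells, Fkbp5 had 134 and 128 CPM in the Insulin libraries and 105.0 and 105 CPM in the Saline libraries (log2 0.31, SE 0.10). Every Insulin library lay above every Saline library. That also held for Ddit4, at 15.9 and 20.2 CPM in Insulin and 9.37 and 15.3 CPM in Saline libraries (log2 0.55, SE 0.27), and for Trib1, at 4.07 and 5.31 CPM in Insulin and 2.79 and 3.61 CPM in Saline libraries (log2 0.55, SE 0.27). Nr3c1 had the opposite order, 92.2 and 88.6 CPM in the Insulin libraries and 100.8 and 97.5 CPM in the Saline libraries (log2 -0.14, SE 0.11).

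The other 5 members overlapped between the groups. Tsc22d3 was at 47.8 and 62.8 CPM in Insulin and 38.1 and 55.0 CPM in Saline libraries (log2 0.25; in the fit with a replicate block for run, 0.25 at an edgeR adjusted p of 0.785). Within each run its Insulin library was the higher, 47.8 against 38.1 CPM in run 230 and 62.8 against 55.0 CPM in run 232, so its overlap lay between the runs. Sgk1, Zbtb16, Nr3c2 and Hsd11b1 did not have the same order in both runs. Sgk1 was at log2 0.11, Zbtb16 at 0.08, Nr3c2 at -0.01 and Hsd11b1 at -0.02. None of the 9 members passed edgeR's quasi-likelihood test (the edgeR adjusted p was 0.9997 for each), Fkbp5 alone had an unadjusted p under 0.05, and DESeq2 called none. Of the 21190 genes tested 0% were called by edgeR, where 88 genes had an unadjusted p under 0.05, and none by DESeq2, where 74 had. Neither of these fits has a term for the run. The edgeR fit with a replicate block for run also called 0 genes, with 1339 at an unadjusted p under 0.05. Among all genes 8.44% had both Insulin libraries above both Saline libraries and 10.2% had them below, against 3 and 1 of the 9 members. The median log2 difference of the members was 0.11 and that of all genes 0.01.

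Within the cell types, 61 member tests could be made and none passed edgeR's test, while 8 had an unadjusted p under 0.05 and DESeq2 called none. Of all 88452 tests in the 8 types 0% were called by edgeR, and 1613 had an unadjusted p under 0.05. Both Insulin libraries lay above both Saline libraries in 23 of the 61 and below in 5, beside 14.0% and 12.9% of all genes tested. The types share their libraries and so are not independent repeats of this count. Ependymo rested on few nuclei, 16 in the Insulin library of run 230.

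Fkbp5 was above Saline in 4 types and below it in 1. In Micro nuclei the values already given, 1824 and 910 CPM in Insulin and 586 and 733 CPM in Saline libraries, came to log2 0.96 (SE 0.49, adjusted p = 0.895). Micro values hung on single libraries: log2 was 0.42 without the Insulin library of run 230, and 1.34 without that of run 232, where the test was passed (adjusted p = 0.0253) in a fit that called 789 tests among all genes of the 8 types. In each fit without a library 1 group holds a single library, which is assumed to vary like those of the other group, and the runs are no longer balanced. Microglial markers in these nuclei summed to 5073 and 2970 CPM in the Insulin libraries and 2103 and 2561 CPM in the Saline libraries, neuronal markers to 498 and 1544 CPM in Insulin and 1810 and 1751 CPM in Saline libraries, astrocyte markers to 819 and 394 CPM in Insulin and 298 and 368 CPM in Saline libraries, and OPC markers to 275 and 551 CPM in Insulin and 701 and 639 CPM in Saline libraries. No gene of these lists was at 0, and their part in the result was not tested. Astro nuclei had Fkbp5 at 402 and 272 CPM in the Insulin libraries and 246 and 215 CPM in the Saline libraries (log2 0.53, SE 0.21), beside OPC markers at 144 and 130 CPM in Insulin and 113 and 121 CPM in Saline libraries. Endothelial nuclei had 433 and 431 CPM in Insulin and 309 and 315 CPM in Saline libraries (log2 0.46, SE 0.15), a gap much wider than the spread within either group. In Neuron nuclei the difference was small, 90.1 and 86.2 CPM in Insulin and 80.2 and 76.6 CPM in Saline libraries (log2 0.16, SE 0.11).

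Ependymo nuclei went the other way, with Fkbp5 at 34.7 CPM (3 UMIs) and 60.7 CPM in the Insulin libraries and 131 and 138 CPM in the Saline libraries (log2 -1.32, SE 0.39, edgeR adjusted p = 0.9995). Mural markers in these nuclei summed to 11.6 and 29.0 CPM in Insulin and 39.0 and 48.0 CPM in Saline libraries, and their part was not tested. Without the Insulin library of run 232 the difference was log2 -2.01. Mural Cell (log2 0.63), OPC (log2 0.32) and Oligo nuclei (log2 -0.00) overlapped between groups. Mural Cell and OPC each rested on 1 library, since Fkbp5 stood at log2 -0.08 in Mural Cell without the Insulin library of run 232, and at -0.08 in OPC without that of run 230. Whether the insulin difference of a type departs from that of the others was tested directly. None of 72 member tests passed, and 5 had an unadjusted p under 0.05. Among all genes 0.00171% of 116776 tests passed, and 4825 had an unadjusted p under 0.05. The departure of Fkbp5 was log2 0.77 in Micro (adjusted p = 0.557) and -1.60 in Ependymo nuclei (adjusted p = 0.561). It passed in Micro without the Insulin library of run 232 (log2 1.33, adjusted p = 0.0164), where 202 tests were called among all genes, and in Ependymo without a filter on low counts (log2 -1.55, adjusted p = 0.021), where 170 were.

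For Tsc22d3 the widest gaps were in OPC and Micro nuclei. OPC nuclei had 28.3 and 34.8 CPM in the Insulin libraries and 8.57 and 15.9 CPM in the Saline libraries, 121 UMIs in all (log2 1.29, SE 0.37, adjusted p = 0.9998). When the sequencing run entered the fit as a replicate block, this was the 1 member test of the cell types that passed (log2 1.32, adjusted p = 0.0433). That fit has 1 residual degree of freedom and called 65 of the 88452 tests of all genes. OPC nuclei also differed in ependymal-type markers, at 34.8 and 60.6 CPM in Insulin and 19.6 and 28.4 CPM in Saline libraries, whose part was not tested. In Micro nuclei Tsc22d3 was at 229 and 104 CPM in Insulin and 45.1 and 89.7 CPM in Saline libraries (log2 1.18, SE 0.46), beside the marker sums given above. It came to log2 0.57 without the Insulin library of run 230 and 1.61 without that of run 232, where it passed (adjusted p = 0.00726). Without the Saline library of run 232 it was 1.71. Endothelial nuclei had 422 and 474 CPM in Insulin and 346 and 328 CPM in Saline libraries (log2 0.40, SE 0.16), beside mural markers at 31.6 and 43.3 CPM in Insulin and 44.5 and 45.7 CPM in Saline libraries.

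Ddit4 had a log2 difference above 0 in 7 of 7 types tested and no overlap between groups in 5 of them, all with Insulin above Saline, as in 14.0% of the tests of all genes. Astro nuclei had 73.8 and 93.6 CPM in the Insulin libraries and 47.1 and 62.0 CPM in the Saline libraries (log2 0.59, SE 0.21). Oligo nuclei had 122 and 116 CPM in Insulin and 61.2 and 101.5 CPM in Saline libraries (log2 0.55, SE 0.25). Both passed without the Saline library of run 232, at log2 0.81 (adjusted p = 0.0164) in Astro and 0.91 (adjusted p = 0.0258) in Oligo nuclei; leaving out that library gave 1416 calls among all genes of the 8 types, where the fit with all libraries gave 0. In Neuron nuclei Ddit4 stood at 6.24 and 8.61 CPM in Insulin and 4.14 and 5.96 CPM in Saline libraries (log2 0.55), and in Micro nuclei at 64.7 and 32.0 CPM in Insulin and 17.5 and 20.6 CPM in Saline libraries (log2 1.19). The difference was log2 0.54 in Endothelial, 0.44 in OPC and 0.35 in Mural Cell nuclei, the last at -0.05 without the Insulin library of run 232.

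Trib1 could be tested in 4 types, which share the 4 libraries, and its Insulin libraries lay above its Saline libraries in each, as in 14.0% of the tests of all genes. Neuron nuclei had 1.78 and 2.43 CPM in Insulin and 0.994 and 1.40 CPM in Saline libraries (log2 0.81, SE 0.33), and Endothelial nuclei 14.7 and 16.7 CPM in Insulin and 9.81 and 8.92 CPM in Saline libraries (log2 0.73, SE 0.42). It stood at log2 0.46 in OPC and 0.28 in Astro nuclei. Zbtb16 was above Saline in Endothelial (log2 0.35) and Ependymo nuclei (log2 0.46), among 3 types without overlap, and Sgk1 in 3 types, with 1 type, Astro, below. Hsd11b1 in Astro nuclei, 31.8 and 34.1 CPM in Insulin and 22.6 and 29.0 CPM in Saline libraries, came to log2 0.33 (SE 0.21, adjusted p = 0.9999). Immediate early genes, which report recent cell activation, lay on the same side: their 12 genes summed to 90.4 and 127 CPM in the Insulin libraries and 59.6 and 65.9 CPM in the Saline libraries over all nuclei, and their part in the target results was not tested.

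The receptors had small differences. Nr3c1 was below Saline in Neuron nuclei, at 85.7 and 85.0 CPM in the Insulin libraries and 93.4 and 92.1 CPM in the Saline libraries (log2 -0.13, SE 0.10), and in Endothelial nuclei (log2 -0.31, SE 0.19). Nr3c2 overlapped between groups in all 8 types, and in Neuron nuclei its log2 difference was -0.00 (SE 0.14). Among neuron populations Nr3c1 was below Saline in 12 of 33 tested and above it in 4, and Fkbp5 above in 14 of 34 and below in 3, whereas 14.2% of all genes tested were above and 13.8% below. These counts repeat the same 4 libraries in every population. In M26.Agrp, the population highest in Fkbp5, the difference was log2 0.38 (SE 0.18, adjusted p = 0.999), and in M31.Th the Insulin and Saline libraries overlapped. Ddit4 had a log2 above 0 in 12 of the 13 populations where it was tested. Its Insulin libraries lay above Saline in 4 of them and below in 0, beside the same shares of all genes and from the same 4 libraries.

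Of all 359137 tests in populations 0.000835% passed edgeR's test, and 7658 had an unadjusted p under 0.05. None of the 208 member tests passed it, with 4 at an unadjusted p under 0.05 and none called by DESeq2. Zbtb16 in M27.Trh came closest, at 303 and 129 CPM in the Insulin libraries and 56.3 and 121 CPM in the Saline libraries (log2 1.33, SE 0.45, adjusted p = 0.86). Its groups did not overlap, but single libraries set its size. It passed without the Insulin library of run 232 (log2 1.82, adjusted p = 0.00285) and without the Saline library of run 232 (log2 1.97, adjusted p = 0.00244), where 1 group holds 1 library and 130 and 5447 tests were called over all genes of the populations. It also passed without a filter on low counts (log2 1.40, adjusted p = 0.0189), where 192 were. Trib1 had no test in any population, and in M27.Trh it was read at 21.8 and 20.7 CPM in the Insulin libraries and 7.51 and 3.01 CPM in the Saline libraries, 26 UMIs in all.

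**Figure D4:**
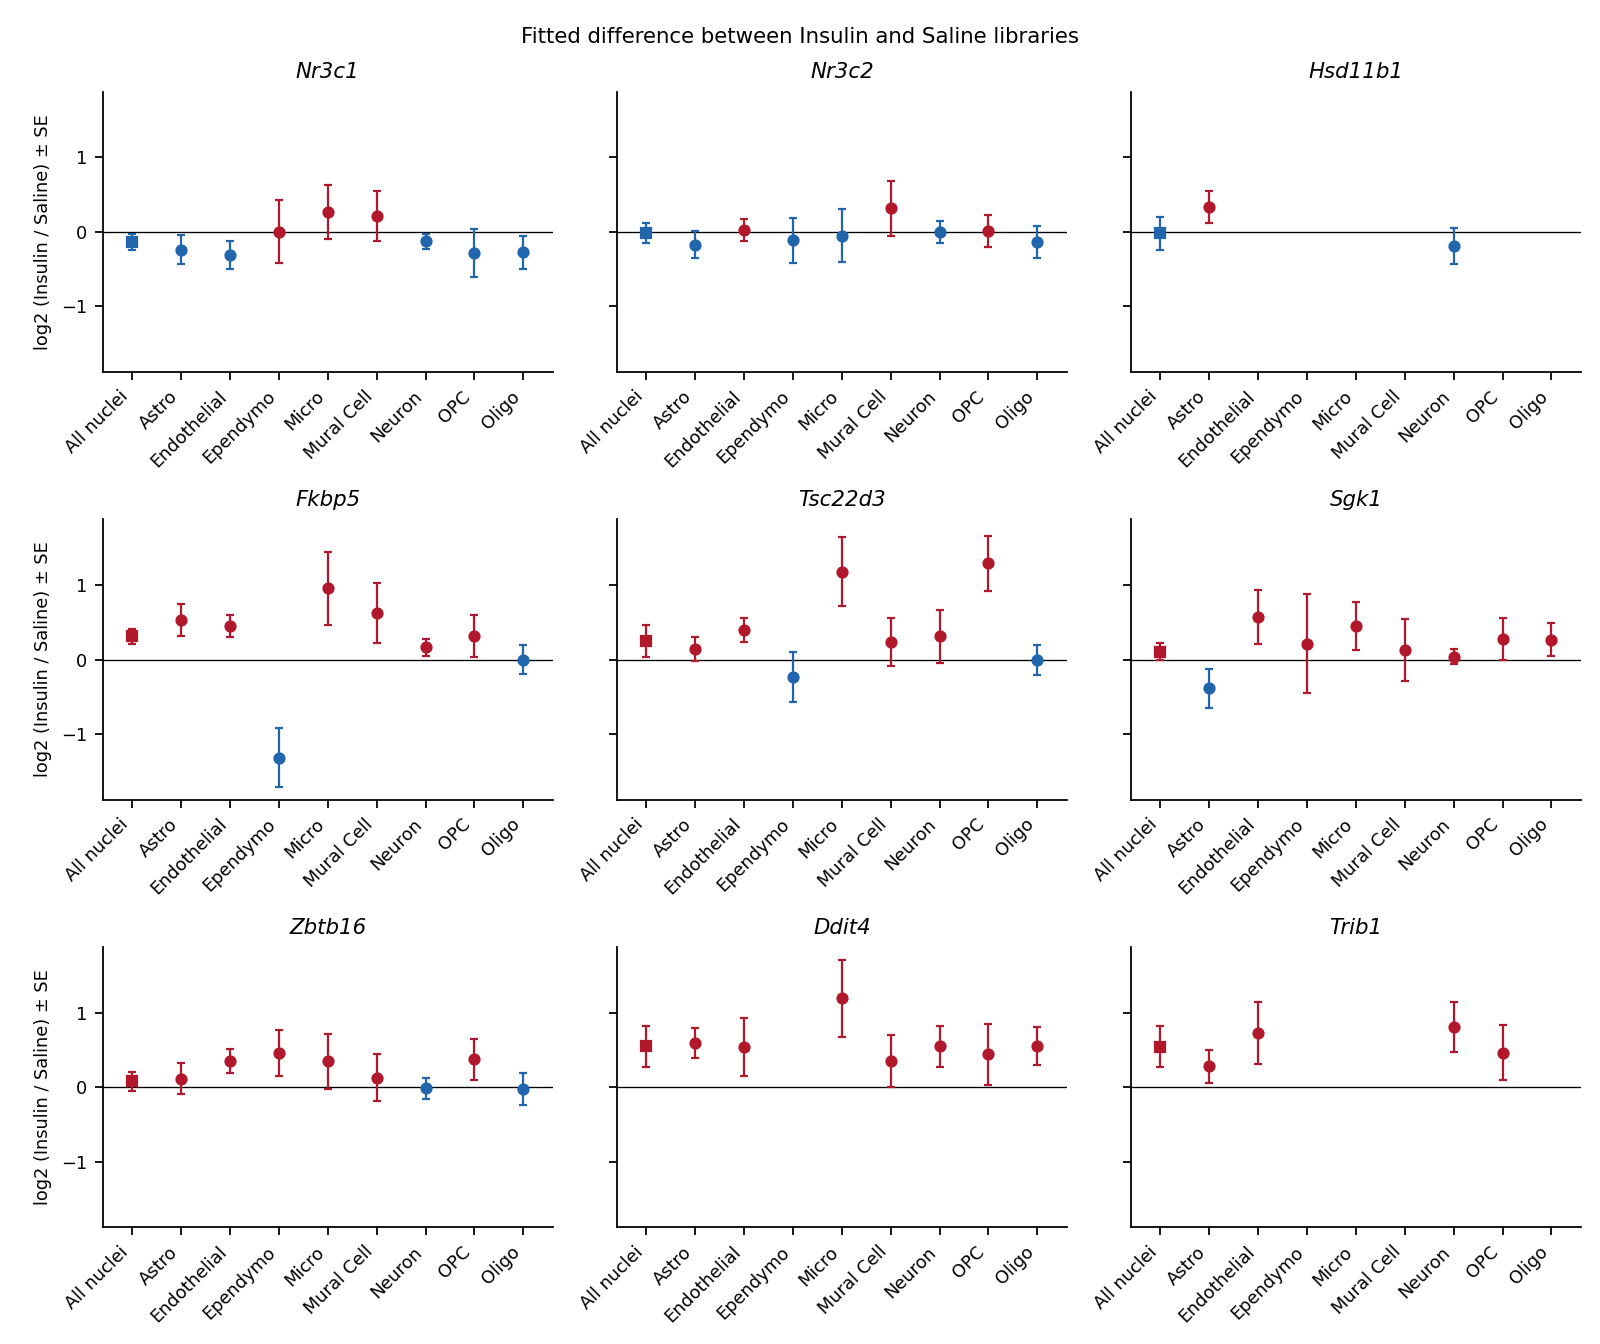
Fitted log2 difference of Insulin over Saline libraries (vertical axis; bars, ± 1 SE) for each member in all nuclei (square) and in each annotated cell type with a test (circles), above 0 in red and below 0 in blue. No value passed the test; Ddit4 lies above 0 in each of its 8 fits, and Fkbp5 above 0 in 6 of 8 types, with Ependymo at -1.32.

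The wider pathway was described with gene lists. The 10 genes of the receptor machinery, chaperones and co-regulators such as Ptges3 and Ncor1, were even over all nuclei, with a median log2 of 0.02 and 6 of 10 above 0. Ptges3, the p23 co-chaperone of the receptor complex, had the smallest p, at 64.3 and 62.4 CPM in the Insulin libraries and 46.8 and 61.9 CPM in the Saline libraries (log2 0.22, SE 0.15). Of 4 genes of steroid access, among them Abcb1a, the exporter of glucocorticoids at the blood-brain barrier (log2 -0.38), 1 was above 0. The sodium transport and Sgk family had 8 of 11 above 0 and a median of 0.03.

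A further list of 22 glucocorticoid-induced genes was described in the same way. Over all nuclei 18 of the 22 had a log2 above 0, the median was 0.26, and 7 lay above Saline with 0 below; none passed edgeR's test. Over all genes the median was 0.01, with 8.44% above Saline and 10.2% below. Errfi1, a feedback inhibitor of the EGF receptor, had 38.5 and 39.2 CPM in the Insulin libraries and 24.6 and 31.04 CPM in the Saline libraries (log2 0.48, SE 0.14, adjusted p = 0.9997). Dusp1, a phosphatase of MAP kinases that is itself an immediate early gene, had 5.07 and 7.30 CPM in Insulin and 3.51 and 2.90 CPM in Saline libraries (log2 0.93, SE 0.29). Cdkn1a, the cell cycle inhibitor p21, was at log2 0.70 (SE 0.25). By type the list had its widest median in Micro, log2 0.62 with 10 of 12 above 0. Ependymo came next at 0.46 with 8 of 10 above 0, and then OPC at 0.43 with 14 of 15 above 0. All genes tested had medians of 0.02 in Micro, -0.02 in Ependymo and -0.00 in OPC. The marker sums that differed in these nuclei are given above, and immediate early genes summed to 194 and 208 CPM in Insulin and 72.6 and 174 CPM in Saline libraries in Micro, and to 101 and 146 CPM in Insulin and 49.0 and 87.5 CPM in Saline libraries in OPC nuclei. In Ependymo nuclei immediate early genes, with 3 of the 12 at 0, summed to 81.0 and 183 CPM in Insulin and 63.3 and 64.9 CPM in Saline libraries. Their part was not tested. Nfkbia, the inhibitor of NF-kB, was in OPC nuclei at 25.9 and 23.0 CPM in Insulin and 9.80 and 7.11 CPM in Saline libraries (log2 1.58, SE 0.40, adjusted p = 0.9998). In Mural Cell nuclei Dusp1 had 93.3 and 243 CPM in Insulin and 21.3 and 39.3 CPM in Saline libraries (log2 2.44, SE 0.56, adjusted p = 0.9997), beside neuronal markers at 858 and 578 CPM in Insulin and 361 and 475 CPM in Saline libraries.

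Between cell types the same list was counted against all 14597 genes. In Astro nuclei 19 of 21 passed as higher and 2 as lower, beside 4166 and 3680 of all genes, led by Gjb6, a connexin (log2 4.54), Hif3a (log2 3.61) and Fam107a (log2 2.39). In Neuron nuclei all 21 tested passed as lower, beside 4777 of all genes, with Mertk, a phagocytic receptor, at log2 -6.11, Hif3a at -5.05 and the metallothionein Mt2 at -2.92. Micro nuclei had 3 higher and 11 lower, beside 3368 and 1710 of all genes, with Mertk (log2 3.34) among the higher. Oligo nuclei had 12 higher and 6 lower, beside 4139 and 4395 of all genes, with Plin4 (log2 5.03) and Arrdc2 (log2 4.87) in front.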

How the data were processed

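Gene by nucleus UMI counts were deposited by the authors with their annotation of cell types and neuron populations. Libraries came from sorted nuclei of dissected mediobasal hypothalamus by droplet sequencing of polyadenylated RNA, per the labels' protocols. Cell Ranger and GRCm38 are named in the submitters' processing notes; whether intronic reads were counted is not given in the sources used here. Of 36534 annotated nuclei 36523 were found among 41156 barcodes, each with at least 500 UMIs. The authors' labels for doublets (423) and unassigned nuclei (1116) stayed in the sums over all nuclei and out of the cell types. There were 0 columns of values per sample left unused.

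Counts were summed per library over all nuclei, 8 cell types and the 35 of 37 populations with at least 10 nuclei in every library. M13.Irx5 and M2.Hdc were left out, with 9 and 2 nuclei in the Saline library of run 232. Sums were tested with edgeR 4.0.16 in R 4.3.3 (TMM scaling, filterByExpr, quasi-likelihood test, Benjamini-Hochberg adjustment over all genes of a fit, threshold 0.05). An SE is the log2 difference divided by the square root of its F value. Groups were fitted without a block, which left 2 residual degrees of freedom over all nuclei. Types and populations were fitted with a library term. CPM is the share of summed UMIs, computed with Python 3.11.15, numpy 2.4.6 and pandas 2.3.3, and an SD is over libraries. The fits were tested on simulated data that held no difference between runs, so that test does not cover the run difference of these libraries.

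Alternatives were the run as a replicate block, DESeq2 1.42.0, RLE scaling, no filter, each library left out, nuclei thinned to 1000 UMIs, no library term, and no doublets or unassigned nuclei. Libraries are named by group and run, since the deposited names carry no replicate number. Deviations from group means within a run correlated at 0.701 over all nuclei and 0.68 in neurons, and the run gives 2 pairs. Members, lists and the genes named from them (for each member the 3 populations with the highest and lowest mean CPM, in each list at most 3 genes with the smallest p, and the 3 genes closest to a member across populations) were chosen with earlier results of these data known.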

Additional observations from a re-analysis of the deposited data

Results flagged for a closer look

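Fkbp5 in Mural Cell nuclei of the Insulin library of run 232 was at 557 CPM, far from the other 3 libraries at 249.7 to 282 CPM. The gap to the nearest library was 0.896 of the whole range, past Dixon's critical value for 4 libraries. It was the 1 such case among 81 groups of 4 libraries, where chance alone marks about 5% of groups. The 9 members together made up 725 CPM in barcodes that carry no annotation (26934 UMIs), against 713 CPM in annotated nuclei.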

How the results depend on the processing

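With 2 libraries per group, p-values rest on few residual degrees of freedom, and scarce genes (Hsd11b1 and Trib1 in most populations) rest on few UMIs. Of the member tests of insulin against saline in cell types, 0 passed, against 1 with the run as a replicate block and 0 to 2 when each library was left out. In populations 0 passed, against 1 without a filter on low counts and 0 to 1 when each library was left out. For the insulin effect of 1 type against the others 0 passed, against 1 without a filter and 0 to 1 when each library was left out. The replicate block changed no other call of a member. Of the population differences 130 of 315 passed, against 64 of 175 in thinned nuclei.

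The sign of small insulin differences depended on the libraries. Over all nuclei Hsd11b1 ranged from log2 -0.13 to 0.10 when each library was left out and was 0.0023 without doublets and unassigned nuclei, Nr3c2 ranged from -0.15 to 0.15 and Zbtb16 from -0.0435 to 0.22. In Mural Cell nuclei Ddit4 ranged from -0.0504 to 0.61 and Fkbp5 from -0.0836 to 1.05. Fkbp5 ranged from -0.0834 to 0.64 in OPC and from -0.15 to 0.15 in Oligo nuclei, where it was 0.00057 with the replicate block. The cause was not tested. Over all genes of the 8 types the insulin calls were 0, against 65 with the block, 143 without a filter and 63 to 1416 when each library was left out. Over populations they were 3, against 467, 192 and 78 to 5447, with 5 by DESeq2. For the effect of 1 type against the others they were 2, against 13, 170 and 0 to 202. Thinning gave 28757 calls between types, against 54196, and 25100 between populations, against 102764. The receptor balance moved by more than 1 SD with thinning in 16 of 43 groups of nuclei.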
